A study of Mus musculus with 4 samples.

Results

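Astrocyte-rich spots were defined in a spatial transcriptome of the mouse olfactory bulb by 5 homeostatic genes of astrocytes: Aqp4, Slc1a3, Gja1, Slc6a11 and Aldh1l1. Among spots with at least 500 unique molecular identifiers (UMIs, each a captured molecule), the UMIs of these genes were summed and divided by all UMIs of the spot, and the top 10% of each library were taken. This gave 460 astrocyte-rich spots of 4616, namely 166 of 1662, 71 of 715, 129 of 1296 and 94 of 943 in libraries 1 to 4, and they were compared with the other spots of the same library. Because measured values chose the spots, every comparison of them with the other spots is a description of those spots without a test.

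The assay was Visium, in which a coronal slice of fresh-frozen olfactory bulb lies on barcoded spots, and a spot captures polyadenylated RNA from the tissue above it, which usually means several cells. The labels describe 2 capture areas from 1 control mouse (1 with 2 serial sections, 1 with a single slice) and 2 from 1 mutant mouse (2 serial sections on each). In the mutant, a transgenic soluble VEGFR1, a decoy receptor for vascular endothelial growth factor (VEGF), was expressed in the brain under the tetracycline-regulated Camk2a-tTA driver with VEGF blockade at E13.5, before birth. The mice were taken at 5 months, and the series describes partial degeneration of the mutant bulb. The labels name no treatment for the control, and do not say whether it carried the driver or the transgene alone. The 4 library numbers match no label, so no library was given a condition, control and mutant were not compared, and the libraries were not treated as replicates.

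Astrocytes clear glutamate and GABA from the surroundings of synapses, buffer potassium and water, couple to each other through gap junctions, and feed neurons. Their endfeet cover brain vessels, and in the olfactory bulb they enclose the glomeruli, where sensory axons meet mitral, tufted and periglomerular neurons. After injury or vessel damage they turn reactive, with more intermediate filament protein and secreted acute-phase proteins, while some homeostatic genes can fall. In a spot, more astrocytes and more RNA per astrocyte cannot be told apart.

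The score of the least astrocyte-rich spot taken was 2179, 2058, 2267 and 2320.5 UMIs per 1000000 UMIs in libraries 1 to 4, against 2178, 2057, 2255 and 2312 in the highest spot left out, so the edge of the group is a cut through a continuous range. The median score was 2502, 2452, 2733 and 2858 in the astrocyte-rich spots and 1109, 995, 936 and 917 in the other spots. It rested on few molecules: a median of 22.5, 21, 29 and 31 UMIs of the 5 genes per astrocyte-rich spot and of 8, 7, 8 and 8 per other spot. Astrocyte-rich spots were deeper, with medians of 8773, 8355, 10896 and 11149 UMIs against 7572, 6947, 8878 and 9683, and had more mitochondrial transcripts, 11, 12.1, 7.88 and 8.2% of their UMIs against 8.68, 9.23, 7.28 and 7.37%. By the rule for calls given below, 193 genes were called higher and 210 lower with all spots, and 192 and 217 with spots of at least 2000 UMIs only. With the score taken in spots thinned to 2000 UMIs, 141 were called higher, of which 106 were among the 193, and 159 lower, of which 88 were among the 210. The part of mitochondrial transcripts in the results was not tested. Of 2796 different barcodes, 1460 occurred in more than 1 library and 46 in all 4.

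All 5 genes of the rule contributed, in proportions that differed between libraries. Slc1a3, the astrocytic glutamate transporter (Ensembl ENSMUSG00000005360), supplied 36.1, 37.1, 60.4 and 54.4% of the score UMIs of astrocyte-rich spots in libraries 1 to 4. Slc6a11, a GABA transporter of astrocytes (ENSMUSG00000030307), supplied 35.3, 33.8, 12.4 and 15.1%. The 2 transporters gave similar shares in libraries 1 and 2, while Slc1a3 gave the larger share in libraries 3 and 4.

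Levels are given in counts per 1000000 UMIs (CPM), from the UMIs summed over the astrocyte-rich or the other spots of a library, always in the order of libraries 1 to 4. The level of Aqp4, the water channel of the endfeet (ENSMUSG00000024411), was 254, 269.5, 250.5 and 339 CPM in astrocyte-rich spots and 105, 101, 73.2 and 84.3 CPM in other spots. For Slc1a3 the levels were 932, 949, 1762 and 1618 CPM against 457, 423, 510.1 and 508 CPM. Gja1, the gap junction protein connexin of astrocytes (ENSMUSG00000050953), stood at 366, 339, 356 and 402 CPM against 149, 149, 182 and 173 CPM and varied least between libraries in astrocyte-rich spots. Slc6a11 was at 911, 864, 361 and 449 CPM against 435, 393, 153 and 164 CPM, and the other spots of library 1 exceeded the astrocyte-rich spots of library 3. Aldh1l1, a folate enzyme used as a general astrocyte marker (ENSMUSG00000030088), was at 119, 134, 186 and 165 CPM against 59.6, 56.4, 60.2 and 65.9 CPM.

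These differences are set by the choice of spots, so each gene was also read in spots chosen without it, and all 5 in UMIs that had not chosen the spots. With the spots chosen by the other 4 genes, the ratio of astrocyte-rich to other spots was 1.8, 1.94, 2.92 and 3.22 for Aqp4. It was 1.49, 1.59, 2.18 and 2.29 for Slc1a3 and 1.64, 1.6, 1.56 and 1.99 for Gja1. Slc6a11 gave 1.42, 1.46, 1.65 and 2.04, and Aldh1l1 gave 1.55, 1.63, 2.59 and 2.26. Each gene was thus higher where the other 4 were high, in every library. When a random 50% of each spot's UMIs chose the spots, the summed ratio of the 5 genes was 2.42, 2.55, 3.21 and 3.25 in those UMIs and 1.5, 1.63, 2.46 and 2.49 in the UMIs that had not been used, so the unused molecules showed a smaller ratio above 1 in each library.

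Single astrocyte-rich spots differed widely in which of the genes they held. Aqp4 had no UMI in 31, 14, 21 and 10 astrocyte-rich spots of libraries 1 to 4, and its median over spots was 224, 239, 221 and 292 CPM. Slc1a3 was missing from 2, 1, 0 and 1 of them and had a median of 919.8, 876, 1681 and 1520.3 CPM. In spots thinned to 2000 UMIs, which leaves out 28 shallower astrocyte-rich spots and 356 others, Aldh1l1 was seen in 21.4, 22.7, 37.1 and 26.1% of astrocyte-rich spots and 10, 9.29, 8.67 and 12.1% of other spots. Without thinning those shares were 60.2, 63.4, 78.3 and 74.5% and 33, 30.3, 39.4 and 45%. A spot could therefore be astrocyte-rich without a molecule of any single gene of the rule, except for Slc1a3 in library 3.

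Astrocyte genes that the rule did not use were also higher in astrocyte-rich spots. A gene was called higher when its CPM was at least 25% above that of the other spots in each of the 4 libraries, and lower when it was at least 20% below it in each, which is 0.32 on the log2 scale either way. This was asked of the 7223 genes that had 1000 UMIs or more over all kept spots and 100 or more per library. Of 61 genes on 5 lists of astrocyte genes, 55 passed this filter, 36 were called higher and 0 lower. Over all genes tested, 2.67% were called higher and 2.91% lower. In single libraries, 7.17, 12.8, 13.4 and 14.5% of all genes were past the threshold upward and 15.4, 23.1, 25.4 and 25.7% downward, and 45, 47, 45 and 43 of the 55 astrocyte genes were past it upward. The median log2 ratio of the 55 genes was 0.49, 0.56, 0.84 and 0.83, beside -0.06, -0.07, -0.09 and -0.08 for all 7223 genes. Since the spots were chosen in the same comparison, this describes them and is no independent support for the label.

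**Figure D1:**
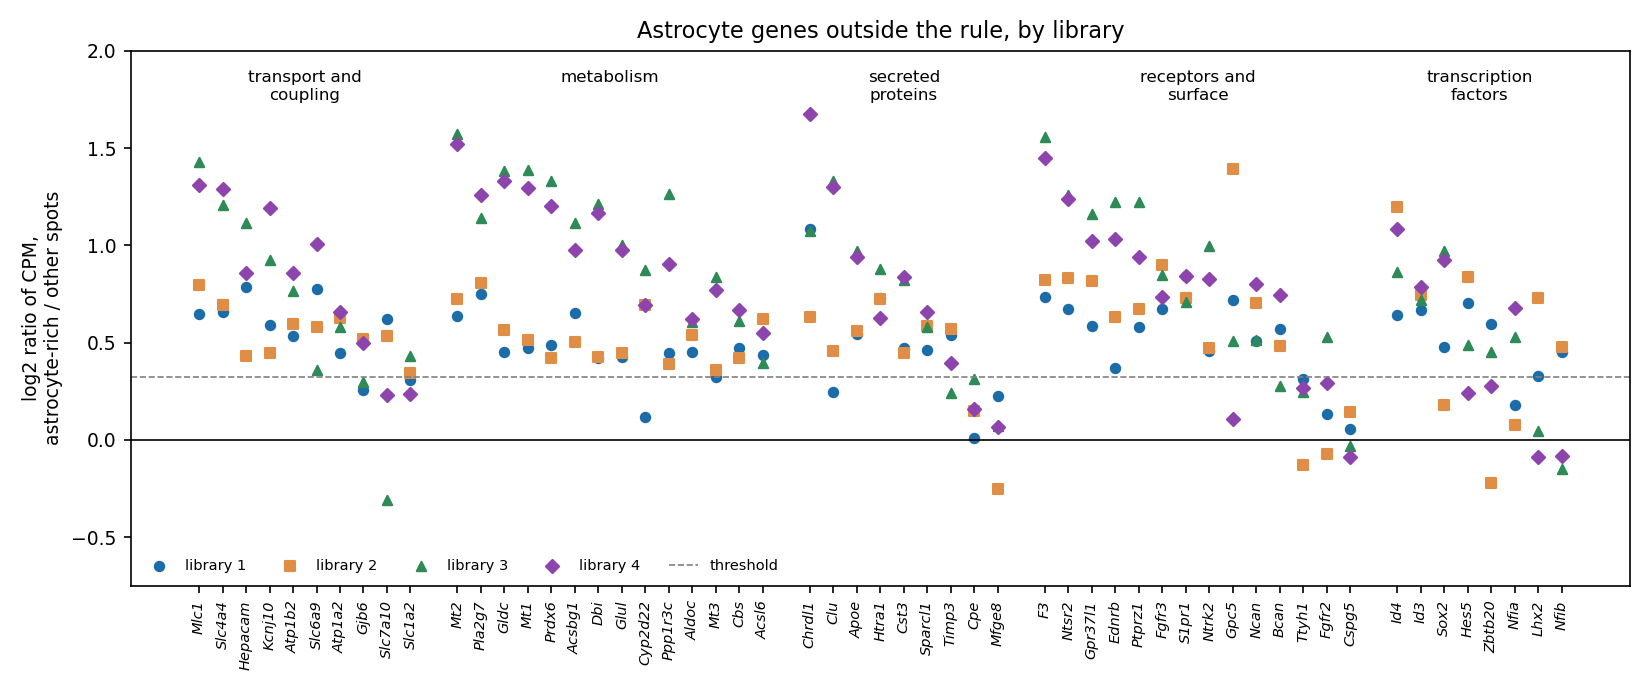
Log2 ratio of CPM between astrocyte-rich and other spots (vertical axis) for each of the 55 astrocyte genes past the filter (horizontal axis, grouped by list and sorted by their median), with 1 symbol per library. The dashed line marks the threshold of 0.32; 36 genes lie above it in all 4 libraries and none lies below -0.32 in all 4.

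Among transport and coupling genes, 7 of 10 were called higher and 3 were not. Mlc1, a membrane protein of endfeet that is mutated in a leukodystrophy, was at 425, 417, 610.4 and 597 CPM in astrocyte-rich spots and 272, 240.5, 227 and 241 CPM in other spots, a ratio of 1.56, 1.74, 2.69 and 2.48. Kcnj10, the potassium channel of astrocytes, was at 446, 374, 253 and 295 CPM against 296, 275, 134 and 129 CPM, a ratio of 1.5, 1.36, 1.89 and 2.28. Slc4a4, a sodium bicarbonate cotransporter, kept nearly the same level in the astrocyte-rich spots of all libraries, 265, 264, 263 and 278 CPM, against 168, 164, 114 and 114 CPM in other spots. The glycine transporter Slc6a9 was called higher on levels of 185, 146, 49.5 and 82.5 CPM against 108, 98.1, 38.8 and 41.2 CPM, with a lower bound under 1 in library 3 (ratio 1.27 (95% interval 0.968 to 1.65)). Slc1a2, the other main glutamate transporter of astrocytes, was only 1.24, 1.27, 1.35 and 1.18 times its level in other spots and was not called. Slc7a10, an exchanger of D-serine and other neutral amino acids, differed in direction between libraries, with log2 ratios of 0.62, 0.54, -0.31 and 0.23. Gjb6, a second connexin, missed the threshold in libraries 1 and 3.

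Metabolic genes were called higher in 13 of 14 cases. Glul, the glutamine synthetase that closes the glutamate cycle, was at 1110.2, 1111, 1881 and 1870.1 CPM in astrocyte-rich spots and 825, 815, 938 and 949 CPM in other spots, and no astrocyte-rich value was below an other-spot value. Aldoc, the glycolytic aldolase of astrocytes, was 1.37, 1.45, 1.52 and 1.54 times higher, from 951, 877, 892 and 953 CPM to 1303, 1276, 1359 and 1468 CPM. The metallothioneins Mt1 and Mt2, which bind zinc and copper, had ratios of 1.39, 1.43, 2.62 and 2.45 and 1.55, 1.65, 2.97 and 2.87. Mt2 stood at 481, 450.4, 1446 and 1322 CPM in astrocyte-rich spots against 310.2, 273, 487 and 461 CPM, so its astrocyte-rich levels in library 3 and in library 4 were above all others. Prdx6, an antioxidant enzyme, followed with 422, 377, 1108 and 1126 CPM against 301, 282, 440.0 and 489.6 CPM. Pla2g7, a lipoprotein-associated phospholipase, was at 282, 266, 210.0 and 226 CPM against 168, 153, 95.3 and 94.7 CPM, and Gldc of the glycine cleavage system at 69.5, 66.1, 82.5 and 92.6 CPM against 51, 45.2, 31.7 and 36.9 CPM. Dbi, whose product yields a peptide acting on GABA receptors, had a ratio of 1.34, 1.34, 2.31 and 2.24. The gene not called, Cyp2d22, had a ratio of 1.07, 1.59, 1.82 and 1.61.

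Of the secreted protein genes, 5 of 9 were called higher. Apoe, the lipid carrier of the brain, was at 4685, 4439, 10209 and 9524 CPM in astrocyte-rich spots and 3212, 3012, 5217 and 4968 CPM in other spots, a ratio of 1.46, 1.47, 1.957 and 1.92. Sparcl1, a matrix protein that promotes synapses, was at 2061, 2090.2, 1649 and 1852 CPM against 1497, 1394, 1105 and 1175 CPM. Chrdl1, an antagonist of bone morphogenetic proteins made by astrocytes, was at 62.5, 45.2, 30.7 and 52.3 CPM against 29.6, 29.7, 14.7 and 16.5 CPM, with a lower bound under 1 in library 2 (ratio 1.52 (95% interval 0.961 to 2.33)). Clu, the chaperone clusterin, was not called because its ratio in library 1 was 1.19 (95% interval 1.11 to 1.27), although it reached 2.52 and 2.46 in libraries 3 and 4. Mfge8, an opsonin for dying cells, had ratios of 1.17, 0.832, 1.05 and 1.04 and Cpe, a prohormone-processing enzyme also made by neurons, of 1.008, 1.11, 1.24 and 1.11.

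Receptor and surface genes were called higher in 9 of 14 cases. Fgfr3, a fibroblast growth factor receptor, was at 139.6, 149.5, 160.5 and 165 CPM in astrocyte-rich spots and 87.9, 80.7, 89.3 and 99.5 CPM in other spots. Ntsr2, a neurotensin receptor of astrocytes, was at 431, 431, 627 and 627 CPM against 271, 242, 262 and 266 CPM, and S1pr1, the sphingosine phosphate receptor, at 117, 118, 101 and 119 CPM against 65.1, 71.6, 62.1 and 66.5 CPM. For these 3 genes every astrocyte-rich library lay above every library of other spots. F3, the tissue factor that starts blood clotting, had a ratio of 1.66, 1.76, 2.94 and 2.73, with 92.4, 95.6, 243 and 194 CPM in astrocyte-rich spots. The chondroitin sulfate proteoglycan Ncan was called, at 346, 348, 159 and 216 CPM against 244, 214, 112 and 124 CPM, whereas its relative Bcan missed the threshold in library 3, where the ratio was 1.21 (95% interval 1.05 to 1.39). Cspg5 and Ttyh1, which neurons also express, had ratios of 1.04, 1.1, 0.976 and 0.939 and 1.24, 0.912, 1.19 and 1.2.

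Transcription factors had the fewest calls of the 5 lists, with 2 of 8 called higher. Id3 and Id4, inhibitors of basic helix-loop-helix factors, were called, at 185, 181, 295 and 317 CPM against 116, 108, 179.6 and 184 CPM and at 76.4, 103, 103 and 126 CPM against 49.1, 45, 57.1 and 59.5 CPM. Sox9, a defining factor of astrocytes, was under the filter for its low counts in library 2, with levels of 24.3, 22.6, 73.5 and 85.5 CPM against 14.9, 14.2, 29.2 and 34.1 CPM and ratios of 1.63, 1.59, 2.52 and 2.51. Sox2, shared with progenitors and other glia, had ratios of 1.39, 1.12, 1.95 and 1.89. Lhx2, Nfib and Zbtb20, all of which neurons express too, had ratios between 0.842 and 1.64, on both sides of 1.

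Glutamate and GABA are broken down by enzymes that astrocytes and neurons share. Glud1, the glutamate dehydrogenase, was called higher with a ratio of 1.41, 1.36, 1.3 and 1.42. Abat, the GABA transaminase, missed the threshold in library 1 with a ratio of 1.21 (95% interval 1.11 to 1.31), and Aldh5a1, the next enzyme of the pathway, had ratios of 1.13, 1.09, 1.07 and 1.15.

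Reactive astrocyte genes had ratios that differed widely between libraries. Of 12 genes on the list, 6 passed the filter and 2 were called higher, Gfap and Vim, the intermediate filaments of reactive astrocytes. Gfap was at 162, 137, 958 and 1176 CPM in astrocyte-rich spots and 99, 77, 289 and 319.8 CPM in other spots, ratios of 1.63, 1.78, 3.31 and 3.68. Vim was at 79.2, 117, 1205 and 1053 CPM against 60.8, 66, 392 and 294 CPM. The astrocyte-rich spots of libraries 1 and 2 had less Gfap and less Vim than the other spots of libraries 3 and 4. Serpina3n, a secreted protease inhibitor, was at 27.8, 40, 1361 and 1090.5 CPM against 29.3, 30.1, 469 and 374 CPM, and was not higher in library 1 (ratio 0.948 (95% interval 0.665 to 1.32)). The complement gene C4b had ratios of 0.925, 0.888, 2.03 and 2.51, and S100a6, a calcium-binding protein, of 0.895, 1.32, 2.1 and 1.8. Hspb1, a small heat shock protein, stayed between 0.89 and 1.31 of the level in other spots. Over the 6 genes the median log2 ratio was -0.05, 0.43, 1.3 and 1.44. The summed level of the whole list was 369, 403, 6934 and 5938 CPM in astrocyte-rich spots and 291, 266, 2155 and 1757 CPM in other spots. Without library 1, a change that can only add calls, the count called was 4 of 6.

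The genes of the list under the filter were nearly silent in some libraries. Lcn2, the iron-binding acute-phase protein lipocalin, had 0 UMIs in the astrocyte-rich spots of libraries 1 and 2, which allows up to 2.08 and 5.22 CPM, and 1789 and 1324 CPM in those of libraries 3 and 4. There its ratio to other spots was 5.0 (95% interval 4.75 to 5.26) and 5.09 (95% interval 4.76 to 5.46). The complement component C3 had 0 UMIs in the astrocyte-rich spots of libraries 1 and 2 as well, and 398 and 305 CPM in libraries 3 and 4. Cd44, Timp1, Osmr and Steap4, a matrix receptor, a metalloproteinase inhibitor, the oncostatin M receptor and a metalloreductase, were at or under 8.34 CPM in the astrocyte-rich spots of libraries 1 and 2. In libraries 3 and 4 they were between 44.3 and 124 CPM, with ratios to other spots from 2.63 to 3.88.

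**Figure D2:**
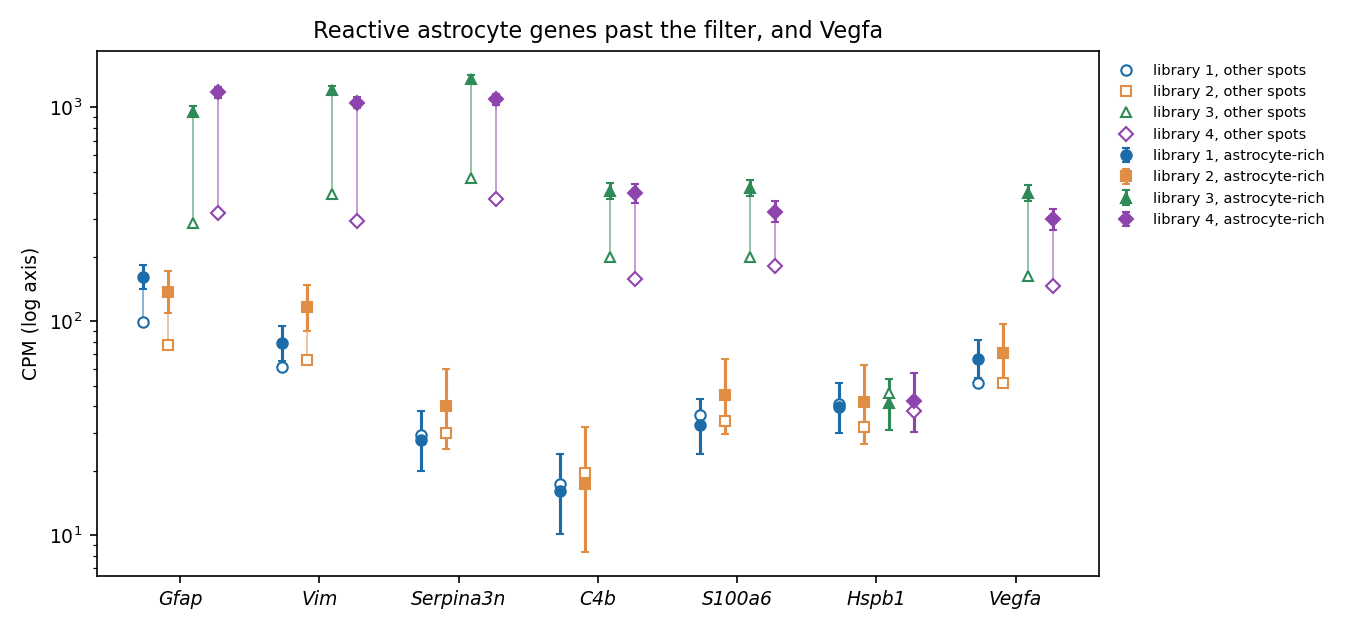
CPM on a log axis of the 6 reactive astrocyte genes past the filter and of Vegfa, in astrocyte-rich spots (filled, with exact 95% Poisson intervals) and other spots (open) of each library. Gfap in astrocyte-rich spots lay at 162 and 137 CPM in libraries 1 and 2, below the open symbols of libraries 3 and 4 at 289 and 319.8 CPM.

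Vegfa, the VEGF ligand, was among the genes called higher in astrocyte-rich spots. It was at 66.7, 71.3, 397 and 299.8 CPM against 51.7, 51.6, 163 and 147 CPM in other spots, ratios of 1.29, 1.38, 2.43 and 2.04, and the interval reached below 1 in library 2 (ratio 1.38 (95% interval 0.966 to 1.93)). In its astrocyte-rich spots library 3 had the highest level and library 1 the lowest. The ligand Vegfb had ratios of 1.02, 1.12, 1.26 and 1.36 and the receptor Flt1, the gene of VEGFR1, of 1.05, 1.8, 1.19 and 1.36, and neither was called. The counts do not say whether molecules of the soluble transgene were counted under Flt1. Kdr, the main signalling receptor, was under the filter at 11.8, 5.22, 9.0 and 10.1 CPM in astrocyte-rich spots. Of the 10 VEGF ligands and receptors listed, 3 passed the filter and Vegfa alone was called. With the other spots weighted to the same mix of expression regions the call of Vegfa was lost, narrowly, in library 1: its log2 ratios were 0.317, 0.33, 0.57 and 0.33, against a threshold of 0.322.

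Neuronal transcripts were lower in astrocyte-rich spots but far from absent. Of 8 pan-neuronal genes, 6 were called lower and 0 higher, with a median log2 ratio of -0.44, -0.58, -0.81 and -0.78. Snap25, a synaptic vesicle fusion protein, was at 1585, 1575, 1057 and 1106 CPM in astrocyte-rich spots and 2123, 2175, 1998 and 2015 CPM in other spots. Rbfox3, the gene of the nuclear antigen NeuN, was at 46.5, 45.2, 44.2 and 47.3 CPM against 76.1, 103, 125 and 130.2 CPM. The gene of the microtubule regulator Stmn2 showed ratios of 0.519, 0.616, 0.485 and 0.461. Map2 and Syt1, a dendritic and a vesicle protein, were lower by less than the threshold in at least 1 library.

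Neuron classes of the bulb did not follow this order alike. Of 4 periglomerular genes past the filter, 2 were called higher, Th and Trh. Th, tyrosine hydroxylase of the dopaminergic periglomerular neurons, was at 738, 722, 189.7 and 224 CPM in astrocyte-rich spots and 565, 508, 115 and 103 CPM in other spots, and Trh, a neuropeptide precursor, at 387, 433, 104 and 160.0 CPM against 242, 237, 44.7 and 43.6 CPM. Neither call held when the other spots were weighted to the same mix of expression regions, the comparison described further on, which gave log2 ratios of 0.00, -0.10, 0.28 and 0.50 for Th and 0.16, 0.10, 0.31 and 0.96 for Trh. Calb2 came close to the threshold with ratios of 1.21, 1.42, 1.22 and 1.36. Its relative Calb1 had ratios of 2.16, 1.36, 0.099 and 0.195, above 1 in libraries 1 and 2 and below it in libraries 3 and 4. Granule cell genes were lower where called, 2 of 6, with Pcp4 at 493, 395, 460.4 and 444 CPM against 862, 954, 873 and 928 CPM. Among mitral and tufted cell genes Slc17a7, the vesicular glutamate transporter, was called lower, with ratios of 0.682, 0.659, 0.728 and 0.607. Eomes and Reln had ratios of 0.978, 1.07, 1.79 and 2.35 and 0.716, 0.714, 1.29 and 1.53, which changed side between libraries. Forebrain excitatory genes had the lowest median log2 ratio of these neuron lists in libraries 2 to 4. In library 1 their median was -0.47, beside -0.48 for mitral and tufted cell genes. Nrgn was at 63.2, 66.1, 165 and 145 CPM against 118, 161, 1303 and 1366 CPM and Camk2a at 91.7, 92.2, 126 and 109 CPM against 127, 150.1, 318 and 316 CPM. All 3 forebrain genes past the filter were called lower. With the region weighting, 0 genes of the granule cell, mitral and tufted cell and forebrain lists were called lower.

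Other glia and vessel genes gave values that differed between lists and libraries. The median log2 ratio was 0.51, 0.62, 0.50 and 0.39 for ensheathing glia and 0.40, 0.42, 0.61 and 0.85 for microglia. For oligodendrocyte precursors it was 0.35, 0.50, 0.47 and 0.89, for oligodendrocytes -0.27, -0.33, 0.10 and 0.20 and for endothelium 0.53, 0.56, 0.13 and 0.21. The astrocyte genes had 0.49, 0.56, 0.84 and 0.83, so some of these lists were as high or higher in single libraries. Fabp7, which olfactory ensheathing glia share with astrocytes, was called higher at 973, 789, 537 and 664 CPM against 603, 518, 261 and 290.3 CPM, whereas Apod had ratios of 0.98, 1.05, 1.17 and 1.39. Olig1 and Olig2 of the oligodendrocyte lineage were called higher with ratios of 1.27, 1.45, 1.85 and 1.85 and 1.37, 1.39, 1.37 and 2.05, and both are also found in astrocyte subsets. Myelin genes were not: Mbp had ratios of 0.83, 0.649, 1.0 and 0.857 and 0 of 7 oligodendrocyte genes past the filter were called in either direction. Of microglial genes, the complement subunits C1qb and C1qc were called, with ratios of 1.33, 1.32, 1.67 and 1.8 and 1.32, 1.53, 1.53 and 1.91, while Csf1r missed the threshold in at least 1 library. P2ry12 and Tmem119, the defining genes of resting microglia, were under the filter at up to 34.2 CPM. Among 4 phagocyte genes past the filter none was called, and Lyz2 was at 29.2, 38.3, 666 and 561 CPM against 25.9, 26.7, 465 and 428 CPM. The numbers past the threshold in single libraries were 0, 2, 4 and 4 of these genes upward and 2, 1, 0 and 0 downward. Of all genes, 7.17, 12.8, 13.4 and 14.5% were past it upward.

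Endothelial genes past the filter were called in 1 of 7 cases, Slc2a1, the glucose transporter of endothelium and astrocytes, at 189.7, 181, 162 and 154 CPM against 131, 123, 112 and 110.0 CPM. In single libraries 5, 6, 2 and 3 of the 7 were past the threshold upward and 0, 0, 1 and 0 downward. Of all genes, 7.17, 12.8, 13.4 and 14.5% were past it upward. Cldn5, the tight junction protein of brain endothelium, had ratios of 1.21, 1.65, 1.4 and 1.28, and Slco1a4 had 1.7, 1.84, 0.721 and 0.991. Of the leptomeningeal genes Dcn was called lower, at 23.6, 40, 72.7 and 99.6 CPM against 55.6, 68.6, 131 and 132 CPM. That call and its direction were lost when spots rich in ensheathing glia, leptomeningeal or phagocyte genes were left out, with a median log2 ratio of 0.25 over libraries, and when Slc6a11 was dropped from the score, with 0.049. It held with the other spots weighted to the same mix of expression regions, with log2 ratios of -1.57, -0.74, -1.76 and -1.46. Globin transcripts were not called in either direction. Summed levels of the ensheathing glia list ran from 2199.7 to 2948 CPM in astrocyte-rich spots and 1655 to 2120.2 CPM in other spots. For the microglia list they were 511 to 1236 CPM and 386 to 824 CPM, and for the phagocyte list 564 to 2472 CPM and 510.2 to 1614 CPM. The part of these cells in the astrocyte gene ratios was not tested. Without the spots rich in ensheathing glia, leptomeningeal or phagocyte genes, 39 of 55 astrocyte genes and 3 of 6 reactive genes were called higher. Of all 7223 genes, 245 were called higher and 250 lower in that setting. No spots were left out there for their microglial or endothelial genes.

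**Figure D3:**
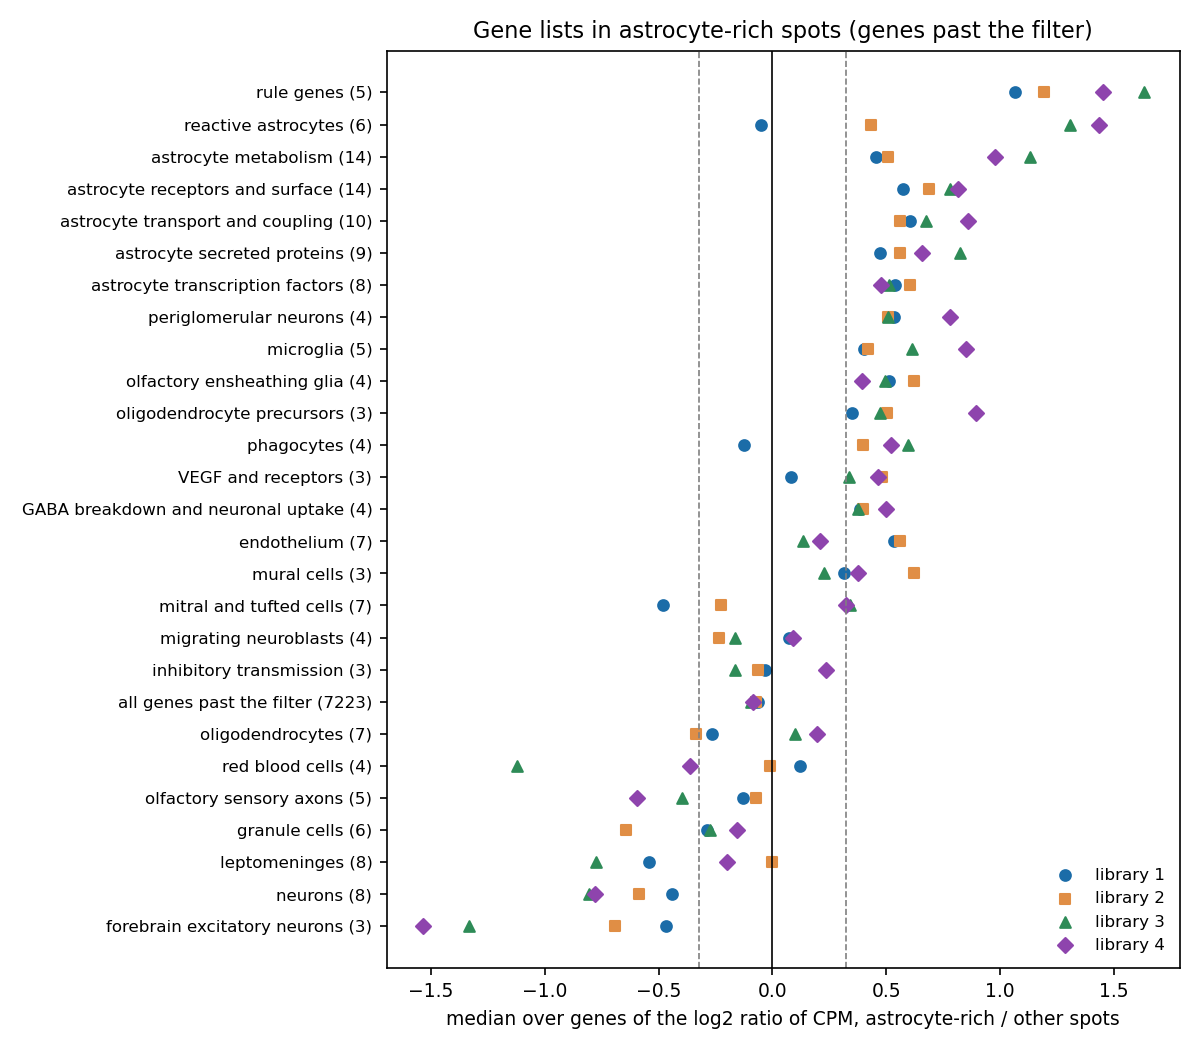
Median over genes past the filter (number in brackets) of the log2 ratio of CPM between astrocyte-rich and other spots, 1 symbol per library, for each gene list with at least 3 such genes. Dashed lines mark the threshold of 0.32 in either direction; the reactive list ran from -0.05 in library 1 to 1.44 in library 4, and the neuron list from -0.81 to -0.44.

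Across the whole table, 193 of 7223 genes were called higher in astrocyte-rich spots and 210 lower. Leaving out a library can only add calls, and the numbers were 311 and 484 without library 1 and 262 and 332 without library 2. Scaling each library to the median of its gene ratios moved the split to 260 higher and 120 lower. The 5 rule genes were left out of the ranking. Of the 20 other genes with the largest ratio in their weakest library, 4 stood on the astrocyte lists and 14 on no list. The first was Etnppl, a phospholyase of phosphoethanolamine found in astrocytes, at 106, 90.4, 87 and 93.6 CPM against 56, 45.2, 36.2 and 39 CPM, or log2 ratios of 0.93, 1.012, 1.27 and 1.27. Aqp1, a water channel of choroid plexus and some reactive glia, came second at 23.6, 43.5, 334 and 220.3 CPM against 12.6, 20.9, 122 and 77.2 CPM, lowest in library 1 and highest in library 3 in both kinds of spot. Lcat, which esterifies cholesterol on lipoproteins, reached 144, 127, 325 and 323 CPM against 77.9, 64.7, 77.1 and 75.3 CPM. Btbd17 and Dbx2, the latter a homeobox factor, had log2 ratios of 0.90, 0.96, 1.08 and 1.15 and 0.87, 0.87, 0.82 and 1.17. Wnt7a, a Wnt ligand, was at 72.3, 64.3, 43.5 and 46.3 CPM against 40.6, 37.2, 23.2 and 23.2 CPM. Rgma, a repulsive guidance molecule, was at 38.9, 48.7, 59.2 and 58.3 CPM against 22.9, 25.6, 30.7 and 33.1 CPM, and Mgst1, a glutathione transferase of membranes, at 93.8, 85.2, 108 and 126 CPM against 47.1, 49, 48.6 and 57.5 CPM. Islr, Kctd12, Lyn, Nwd1, Serpinf1 and Shisa6 completed the unlisted genes, with log2 ratios of 0.68 to 1.74.

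Of the 10 genes lowest in astrocyte-rich spots by the same rule, 8 stood on no list, and Nrgn and Pcp4 stood on neuronal lists. Rtn4r, the Nogo receptor that limits axon growth, was at 13.2, 12.2, 18.7 and 27.2 CPM against 28.3, 28.2, 62.7 and 63 CPM. Rin1, a Ras effector of neurons, was at 11.8, 15.7, 14.2 and 14.1 CPM against 26.2, 34.2, 30.3 and 30.2 CPM, with nearly the same log2 ratio in each library, -1.11, -1.05, -1.05 and -1.05. Igfbp6, a binding protein of insulin-like growth factors, had log2 ratios of -1.03, -1.18, -1.92 and -1.95. Ctxn1 and Arpp21, a neuronal membrane protein and a cAMP-regulated phosphoprotein of neurons, had log2 ratios of -0.84, -1.08, -1.41 and -1.33 and -0.79, -1.02, -1.0 and -1.12. Grasp, Necab3, Cbr2, Nrgn and Pcp4 completed the 10. With the other spots weighted to the same mix of expression regions, Igfbp6, Grasp and Cbr2 were still called lower. Rtn4r, Rin1, Nrgn, Necab3, Ctxn1, Pcp4 and Arpp21 were not. In that comparison Nrgn had log2 ratios of -0.08, -0.22, -0.71 and -0.91.

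Astrocyte-rich spots overlapped in part with spots rich in reactive astrocyte genes, to a degree that differed between libraries. The top 10% of each library by the summed share of the 12 reactive genes held 10.8, 16.9, 40.3 and 40.4% of the astrocyte-rich spots (95% exact binomial interval 6.55 to 16.6% in library 1 and 95% exact binomial interval 30.4 to 51% in library 4). Both groups hold the same number of spots, so each share is also that of the reactive-rich spots, and 10% of all spots are in either group. The 12 genes summed to 369 and 403 CPM in the astrocyte-rich spots of libraries 1 and 2. In libraries 3 and 4 they summed to 6934 and 5938 CPM. Few molecules per spot thus set the reactive-rich group of libraries 1 and 2, and their part in the lower shares was not tested. The top spots by astrocyte metabolism genes held 34.9, 40.8, 56.6 and 51.1%, and those by astrocyte receptor and surface genes 29.5, 32.4, 49.6 and 42.6%. Transport and coupling genes gave 27.7, 36.6, 39.5 and 33.0%. Secreted protein genes gave 30.1, 35.2, 34.9 and 33.0% and transcription factors 21.1, 16.9, 17.8 and 22.3%. In libraries 3 and 4 the reactive share lay above those of these last 3 lists, narrowly so for transport genes in library 3. Those of the periglomerular list held 20.5, 22.5, 10.9 and 12.8%, of the phagocyte list 9.64, 14.1, 20.2 and 18.1%, of the ensheathing glia list 11.4, 14.1, 12.4 and 8.51% and of the pan-neuronal list 1.2, 1.41, 0 and 0%. Of these lists the pan-neuronal one gave the lowest share in every library.

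**Figure D4:**
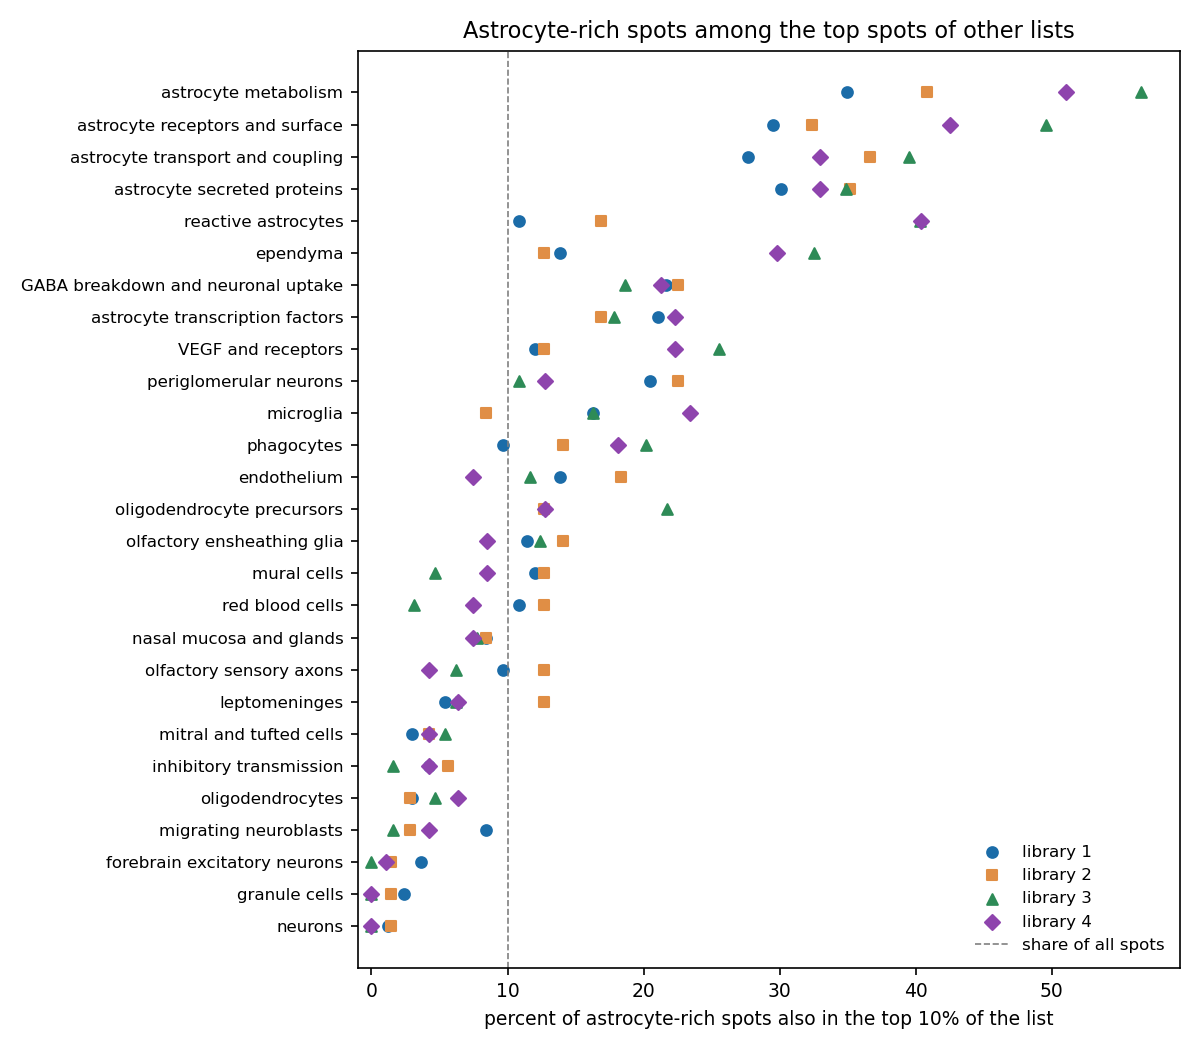
Percent of astrocyte-rich spots (horizontal axis) that were also among the top 10% of spots of their library by each other gene list, 1 symbol per library; the dashed line is the share of all spots. The overlap with the reactive list was 10.8% in library 1 and 40.4% in library 4.

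Spots in both groups, 18, 12, 52 and 38 in libraries 1 to 4, differed from the 148, 59, 77 and 56 spots that were astrocyte-rich only. Gfap was at 420.0, 361, 1376 and 1746 CPM in the former and 140.1, 109.5, 639.9 and 740.1 CPM in the latter, and at 239, 203, 1025 and 1169.7 CPM in spots that were reactive-rich only. Gfap is on the reactive list, so its part of this contrast was set by the choice. Among genes on neither rule, Aqp1 was at 98.3, 109.8, 598 and 395 CPM in spots of both groups and 17.3, 35.2, 133 and 87 CPM in astrocyte-rich spots only. Apoe was at 7586, 6197, 14113 and 12225 CPM and 4439.9, 4220.4, 7246 and 7459 CPM, and highest in reactive-rich spots of libraries 3 and 4 outside the astrocyte-rich group, which had 7476, 7041, 16664 and 15492 CPM. Lcat had its highest levels in the spots of both groups in libraries 3 and 4, with 116, 141, 438 and 423 CPM against 146, 125, 240.1 and 247 CPM. Slc1a2 was higher in astrocyte-rich spots outside the reactive group than in reactive-rich spots outside the astrocyte group, in each library. It was at 849.7, 874, 1016 and 1029 CPM in astrocyte-rich spots outside the reactive group and 449, 407, 646 and 718 CPM in reactive-rich spots outside the astrocyte group. The summed phagocyte list was at 643, 628, 4090.3 and 2784 CPM in spots of both groups, 557, 587, 1244 and 1283 CPM in astrocyte-rich spots only and 562, 616, 8014 and 6086 CPM in reactive-rich spots only. The ensheathing glia list was at 7301, 4973, 3713 and 4322, 1814, 1854, 2098 and 1897 and 7364, 7224, 6165 and 6551 CPM in the same 3 kinds of spot. The median depth was 6610.5, 5118, 11488 and 11442 UMIs in spots of both groups and 9154, 8811, 10213 and 10140 UMIs in astrocyte-rich spots only, and the part of depth and of the other cells in these values was not tested.

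Spots were clustered on genes outside all lists into 12 regions, each named by the gene with the highest ratio to all other spots, which stands for no cell type. The regions divided by library for spots of any kind: the Ly6g6e region had 482, 203, 3 and 6 spots in libraries 1 to 4, the Mmp12 region 0, 0, 211 and 158 and the Gdf10 region 0, 1, 321 and 177. Astrocyte-rich spots are therefore compared only with other spots of their own library. In library 1, 50% of the astrocyte-rich spots (42.2 to 57.8%) and 26.7% of the other spots fell in the Ly6g6e region. Library 2 had 59.2% (46.8 to 70.7%) and 25% there. The Tspan9 region held another 16.3% and 16.9% of the astrocyte-rich spots of libraries 1 and 2, against 7.29% and 6.06% of the others. In library 3 the Mmp12 region held 44.2% (35.5 to 53.2%) of the astrocyte-rich spots and 13.2% of the others, and the Gdf10 region held 38.8% (30.3 to 47.7%) and 23.2%. For library 4 the shares were 36.2% (26.5 to 46.7%) and 14.6% in the Mmp12 region and 41.5% (31.4 to 52.1%) and 16.3% in the Gdf10 region. Astrocyte-rich spots were rare in the Trbc2 region of libraries 3 and 4, with 0.775% and 1.06% of them against 17.7% and 20.6% of the others. Intervals here are exact 95% binomial and cover counting error only.

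**Figure D5:**
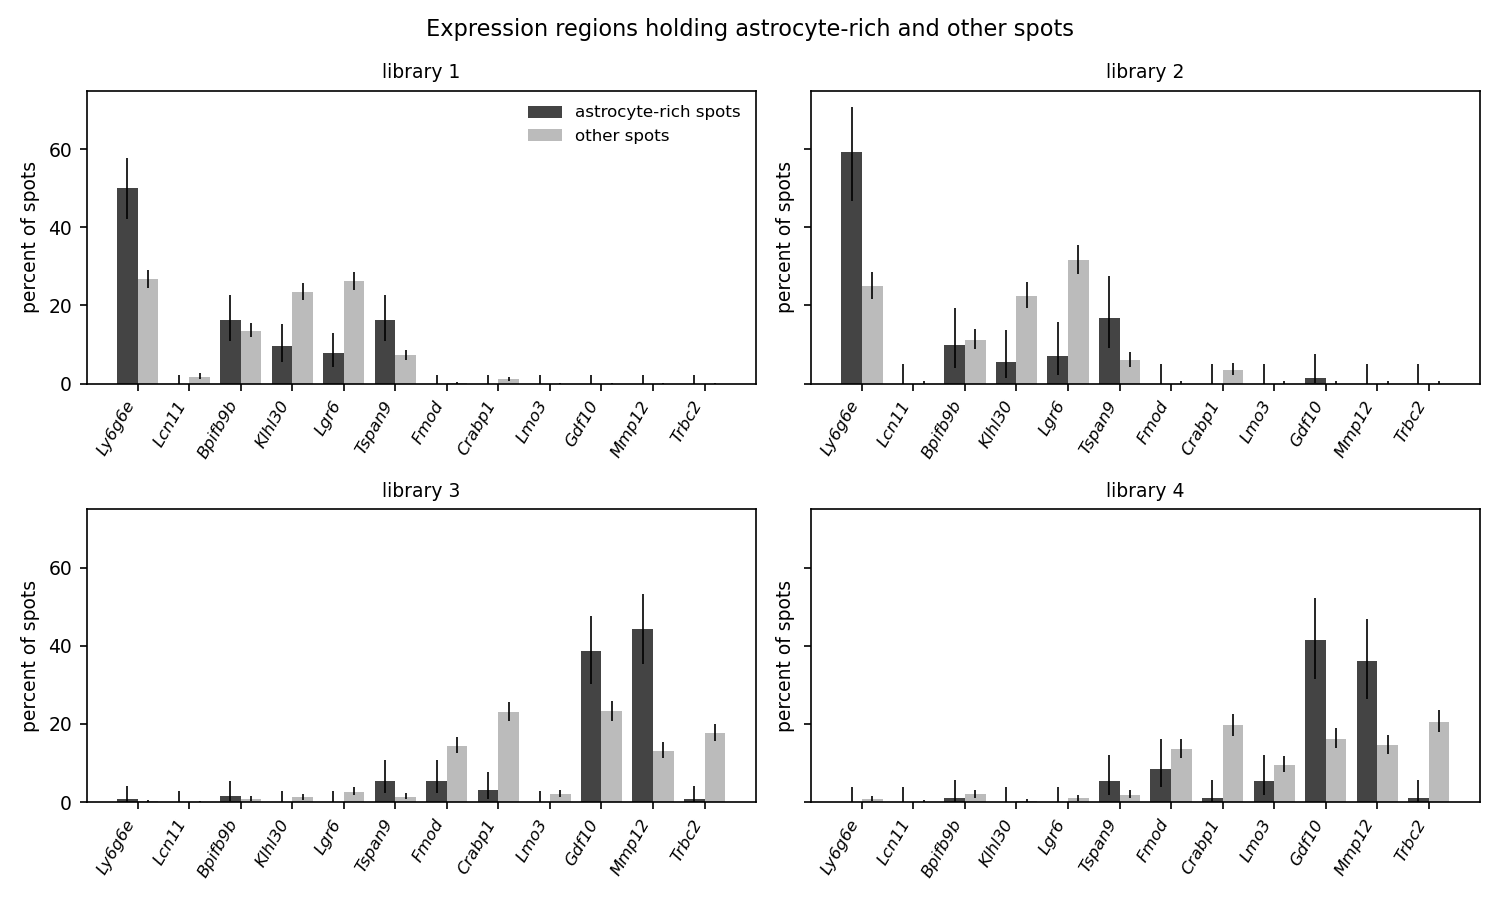
Percent of astrocyte-rich spots (dark) and of other spots (light) in each of 12 expression regions, 1 panel per library, with exact 95% binomial intervals as error bars. The largest region of astrocyte-rich spots was Ly6g6e in libraries 1 and 2, Mmp12 in library 3 and Gdf10 in library 4; libraries 1 and 2 had 0 or 1 spot of any kind in the Mmp12 and Gdf10 regions.

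Fewer genes were called once the regions were matched. When the other spots were weighted to the region mix of the astrocyte-rich spots, a comparison added after the regions were seen, 51 genes were called higher (0.706% of those tested) and 21 lower (0.291%). Of the 55 astrocyte genes, 18 were called higher and 0 lower, of the 6 reactive genes 0 and of the 8 neuronal genes 0 in either direction. The median log2 ratio of the astrocyte genes was 0.35, 0.33, 0.50 and 0.53, that of the reactive genes -0.24, 0.25, 0.45 and 0.63 and that of the neuronal genes -0.18, -0.24, -0.28 and -0.23. The 18 genes included 8 of 14 receptor and surface genes, among them Ntsr2 with log2 ratios of 0.54, 0.61, 0.79 and 0.80 and Fgfr3 with 0.55, 0.59, 0.85 and 0.64, and 6 of 14 metabolic genes, among them Pla2g7 with 0.61, 0.68, 0.66 and 0.82. Mlc1 and Slc4a4 were the 2 transport genes, with 0.54, 0.65, 1.02 and 0.88 and 0.49, 0.54, 0.54 and 0.59. Etnppl, Btbd17, Lcat and Dbx2 also passed, Lcat with 0.54, 0.46, 1.19 and 1.13. Vim, Vegfa, Th, Trh, Fabp7, Olig1, Olig2, C1qb, C1qc, Slc2a1 and Aqp1, called higher without the weighting, did not pass. Gfap and Apoe did not either, with 0.39, 0.26, 0.88 and 1.05 and 0.31, 0.31, 0.09 and 0.10.

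Inside single regions the genes of the 5 astrocyte lists and the reactive genes were read again. Within the Gdf10 region of libraries 3 and 4, 39 and 49 of the 55 astrocyte genes were at least 25% higher in astrocyte-rich spots, beside 12.7% and 14.9% of all genes, with medians of 0.52 and 0.63 on the log2 scale, and the reactive median was 0.68 and 0.87. Within the Mmp12 region of the same libraries the astrocyte medians were 0.61 and 0.52 and the reactive medians 0.40 and 0.44, but Apoe had ratios of 0.922 and 0.839 and Lyz2, a phagocyte gene, of 0.531 and 0.469. Several lists of other cells had medians below 0 there: -0.59 and -0.79 for phagocytes, -0.74 and -0.72 for endothelium, -1.35 and -1.0 for leptomeninges, -1.26 and -1.08 for olfactory sensory axons and -3.04 and -1.89 for red blood cells. The only gland gene past the filter had -5.13 and -3.79. The part of these cells in the astrocyte values of that region was not tested. Within the Ly6g6e region of libraries 1 and 2 the astrocyte medians were 0.34 and 0.37 and the reactive medians -0.14 and 0.08. Gfap there had ratios of 1.22 and 1.08, against 1.77 and 1.79 in the Gdf10 region of libraries 3 and 4. The Tspan9 and Bpifb9b regions of library 1 had astrocyte medians of 0.35 and 0.37, reactive medians of 0.09 and -0.52 and neuronal medians of -0.19 and 0.27. In the Bpifb9b region the reactive median was thus the lowest and the neuronal median the highest of the 8 sets read. Of all 7223 genes, 2319 were past the threshold upward and 1700 downward there. Its other spots held 23836 CPM of leptomeningeal genes, against 3983 CPM in its astrocyte-rich spots. Medians there were -2.13 for leptomeninges, -1.88 for red blood cells and -0.89 for olfactory sensory axons. The part of these tissues in the reactive and neuronal medians was not tested. Only regions with at least 20 astrocyte-rich and 20 other spots of a library were read, 8 in all.

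Reactive genes also differed from spot to spot within the group. The Gfap level of single astrocyte-rich spots had a median of 114, 99.6, 899 and 982 CPM, with quartiles from 467 to 1264 CPM in library 3 and from 0 to 239.6 CPM in library 1. The highest single spots reached 713, 914, 3288 and 3432 CPM. Gfap had no UMI in 57, 26, 7 and 7 of the astrocyte-rich spots. Lcn2 ranged in library 3 from 0 to 9394 CPM with a median of 1118 CPM, and 23 of 129 spots held none. At 2000 UMIs per spot, Gfap was seen in 23.4, 15.2, 78.2 and 85.2% of astrocyte-rich spots and 17.6, 13.4, 39.2 and 40.1% of others. For comparison, Snap25 was seen in 92.9, 95.5, 82.3 and 88.6% of astrocyte-rich spots at that depth and 93.5, 96.8, 94.1 and 91.9% of others.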

How the data were processed

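Visium libraries of olfactory bulb were analysed from 1 pooled matrix of whole-number UMI counts per gene and spot, deposited by the authors and which per the file headers come from Space Ranger, version 1.3.1. The submitters' processing notes name GRCm39 as the build. Annotation and read filters: not given in the sources used here. No coordinates are printed. The matrix holds 32285 genes, 4713 spots and 40624119 UMIs (5223890 to 13304973 per library after filtering), and 32158 of its gene identifiers matched the reference table of gene names.

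Spots with at least 500 UMIs were kept (97 set aside), and libraries were told apart by the number that ends the barcode. Counts were summed over spots, expressed as CPM and compared as ratios, with a prior count of 0.5 for log2 ratios, exact conditional binomial intervals for ratios, exact Poisson intervals for levels and Clopper-Pearson intervals for shares of spots, all at 95%. Intervals and the limit of 3 UMIs used where a sum is 0 cover counting error only. No p-value, mean or SD over libraries is given, and count models such as edgeR were not used, since no group has replicates here. The planned comparison of control with mutant was not run. Doublets do not apply to spots. Results for some list genes are not reported here.

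Genes were filtered and called as stated with the results. The text names genes of 28 lists (219 genes, all in the matrix), the 20 highest and 10 lowest by the library nearest to 1, and the 10 with the widest spread of log2 ratios among genes with at least 30 UMIs in the astrocyte-rich spots of each library; mitochondrial, ribosomal, haemoglobin, unnamed and rule genes were not ranked. The astrocyte-rich spots and all lists were chosen with earlier results of these data known. Regions came from Leiden clustering at resolution 0.8 (scanpy 1.11.5; 2000 variable genes without list genes, 30 components, 15 neighbours) on spots scaled to 10000 UMIs. Spots were thinned with seed 1. The calculations were tested on simulated data. The alternatives tried concern the score, the share of spots, depth, filter, fold, scale and libraries.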

Additional observations from a re-analysis of the deposited data

Results flagged for a closer look

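The 5 rule genes were also present in spots that were set aside for having fewer than 500 UMIs. In these 97 spots they summed to 24 of 27613 UMIs, or 869 CPM (exact 95% Poisson interval 557 to 1293), above the 109 CPM that a count of 0 allows. The level over all kept spots was 1257 CPM, within that interval. The set-aside spots entered no comparison.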

How the results depend on the processing

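Of the counts, shares and medians recomputed under alternatives, 83 stayed within a tolerance and 38 moved. The tolerance was 1.5 times for a count, the exact 95% binomial interval for a share and the 95% counting interval for a log2 ratio. With each library left out in turn, 211 to 311 genes were called higher, 250 to 484 lower, 37 to 38 of the astrocyte genes and 2 to 4 of the reactive genes higher. A call asks for every library, so leaving out a library can only add calls, and these counts could not fall. At a fold of 1.1, 447 genes were higher and 837 lower, and at 1.5, 46 and 36, with 13 astrocyte genes and 1 reactive gene. Without the filter on low counts, 1009 genes were higher and 370 lower, and 4 of 12 reactive genes. The mean CPM of single spots gave 423 lower genes and 1 reactive gene, the median of gene ratios as scale 120 lower genes and 260 higher, and a 95% interval beyond 1 gave 135 lower. A score without Slc6a11 gave 331 lower genes and 4 reactive genes, and a score without Slc1a3 gave 1 reactive gene. Weighting to the region mix, chosen after seeing the data, gave 51 higher, 21 lower, 18 astrocyte genes and 0 reactive genes.

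The median log2 ratio of the rule genes was 1.27, and 1.35 in the top 5% of spots, 1.02 with the score in thinned spots and 0.85 in the unused UMIs. The median overlap with reactive-rich spots was 28.6%, and 15.6% at the top 5%, 39.9% at the top 20% and 22.1% after thinning. By construction 5% and 20% of all spots are in each group at these settings, so the overlaps are not comparable with those at 10%. At the top 5% and the top 20% the overlap was 7.30% and 30.2% with phagocyte-rich, 3.24% and 30.1% with ensheathing glia-rich and 9.07% and 31.2% with periglomerular-rich spots. The region with the largest share of astrocyte-rich spots was taken in each library, and the median of these shares over libraries was 47.1%. It was 52.6% at the top 5% and 60.3% at a clustering resolution of 0.4. Among 250 named genes and 18 alternatives, 3051 median log2 ratios stayed within that tolerance, 1447 moved and 2 reversed. Both reversals were of Dcn (0.049 without Slc6a11 in the score and 0.25 without spots rich in ensheathing glia, leptomeningeal or phagocyte genes). A reversal was counted only for genes called higher or lower in the main comparison. Changes of sign in genes not called were counted with the others. An example is Apod with the region weighting, at log2 ratios of -0.38, -0.11, -0.61 and -0.44. The causes were not tested.

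No paired analysis was possible because the libraries cannot be tied to samples and no comparison between groups was made. With 1 animal per condition, unlabelled libraries and a median of 21 to 31 UMIs of the rule genes per astrocyte-rich spot, depth limits which single spots are called, and low genes such as Lcn2 in libraries 1 and 2 can only be bounded.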

Other observations

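Some genes differed most between libraries in how they separated astrocyte-rich from other spots. Nptxr, a neuronal pentraxin receptor, was at 93.1, 93.9, 89.2 and 74.4 CPM in astrocyte-rich spots and 95.9, 84.8, 317 and 332 CPM in other spots of libraries 1 to 4, so its log2 ratio was -0.04, 0.16, -1.82 and -2.15. Ngef, a guanine nucleotide exchange factor of neurons, had log2 ratios of -0.15, 0.47, -2.07 and -1.86, and Adcy1, a neuronal adenylyl cyclase, of -0.42, 0.26, -2.04 and -1.56. Pcsk2, a prohormone convertase, had -0.19, 0.22, -1.76 and -1.49. Fam131a, Vstm2l and Slc39a10 showed the same order, with -0.03, 0.29, -1.39 and -2.14, -0.07, 0.12, -1.1 and -1.63 and -0.03, 0.56, -0.96 and -1.17. For each of these 7 genes the other spots of libraries 3 and 4 had a higher level than those of libraries 1 and 2. Clic1, a chloride channel protein, and Ms4a15 went the other way, with log2 ratios of -0.50, -0.15, 1.21 and 0.75 and -0.55, -0.56, 0.59 and 1.13. Nrgn, described above, was the remaining gene of these 10.

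Several list genes with low counts were read outside the filter. Prss56, a serine protease listed with ensheathing glia, was at 29.2, 50.4, 22.5 and 23.1 CPM in astrocyte-rich spots against 12.9, 15.9, 9.02 and 10.1 CPM. Slc6a3, the dopamine transporter of periglomerular neurons, was at 23.6, 34.8, 11.2 and 10.1 CPM against 18.7, 16.3, 3.3 and 3.51 CPM. Rarres2, a chemoattractant listed with ependyma, was at 9.03, 12.2, 199 and 183 CPM against 9.1, 6.45, 53.7 and 44.7 CPM, whereas the ependymal Tmem212 had 0 UMIs in the astrocyte-rich spots of all libraries and Ccdc153 at most 1.5 CPM. Bpifb4 of the nasal mucosa and its glands was at 44.5, 8.69, 36.7 and 53.3 CPM in astrocyte-rich spots against 34.5, 12.5, 177 and 360.3 CPM in other spots.

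By the level of reactive genes the libraries fell into 2 pairs in both kinds of spot, with summed levels of 369, 403, 6934 and 5938 CPM in the astrocyte-rich spots and 291, 266, 2155 and 1757 CPM in the other spots of libraries 1 to 4. The labels give no library a condition, and nothing here assigns one.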
